A study of Saccharomyces cerevisiae with 18 samples.

Results

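The 35 genes described here are general stress response genes of the budding yeast Saccharomyces cerevisiae: genes of the kind that the transcription factors Msn2 and Msn4 switch on under many different stresses. They were chosen by name and not by a threshold on measured values, although earlier results of these data were known when the list was drawn up. Each was represented by the probe set that the platform annotation maps to it, and all 35 had exactly 1 probe set and passed the filter on low values. They are 35 of 5442 named features and of 5659 features tested in all. The arrays came from 3 strains in the BY4741 background: wild-type cells, mutants of the gene RLM1 (rlm1) and mutants of the gene SWI3 (swi3). Overnight cultures were diluted and grown for 4 hours without the dye Congo Red or with it at 30 µg/ml. Strain and treatment gave 6 groups of 3 arrays each, and the 3 are biological samples according to the series design. Congo Red binds chitin and glucan and disturbs the building of the cell wall. Rlm1 is a transcription factor that the kinase cascade sensing cell wall damage switches on, and Swi3 belongs to SWI/SNF, a complex that moves nucleosomes. BY4741 itself carries deletions in the genes HIS3, LEU2, URA3 and MET17, and all 6 groups share them. How the rlm1 and swi3 mutants were made, and from how many clones, is not given in the sources used here.

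Msn2 and Msn4 are zinc finger proteins that bind a short promoter sequence called the stress response element. While nutrients are plentiful, protein kinase A and the TOR pathway keep them out of the nucleus, and heat, osmotic shock, oxidants, acid or starvation let them enter and activate their targets. The targets form the induced arm of the environmental stress response. They encode heat shock proteins, enzymes that remove oxidants, enzymes of glucose phosphorylation and the pentose phosphate pathway, small hydrophilic proteins called hydrophilins, and regulators and inhibitors of growth and proteolysis. The same programme lowers ribosome biogenesis genes. SWI/SNF is known to open promoters of many inducible yeast genes, stress genes among them.

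The values were log2 levels deposited by the authors, and differences are given as log2 differences with the SE of a limma fit on all 18 arrays. A gene was said to have risen or fallen where the p-value, adjusted over all 5659 features by the Benjamini-Hochberg method, was under 0.05. As a check of the labels, RLM1 averaged 9.26 ± 0.12 (SD, n = 3) in wild-type cultures without the dye and 4.78 ± 0.12 in the rlm1 mutant. SWI3 averaged 9.55 ± 0.12 in the same wild-type cultures and 3.26 ± 0.11 in the swi3 mutant. The median over all features was at most 10.04 on the wild-type arrays and 9.58 to 9.70 on the swi3 arrays. Both number 1 arrays of rlm1 stood apart, with medians of 9.27 and 9.29, while the other rlm1 arrays had 9.98 to 10.02. Within groups, the median SD of the stress genes was 0.60 and 0.51 in the rlm1 groups against 0.14 and 0.18 in the wild type and 0.25 and 0.21 in swi3. Among wild-type arrays, the treated number 3 array had the highest level of its group for 27 of the 35 stress genes, against 37.2% of all features, and the untreated number 3 array for 14, against 33.9%. Counts are therefore also given without both rlm1 number 1 arrays and without both wild-type number 3 arrays. Arrays of the same number within a strain deviated together. A pair-blocked fit with a term for each such pair is therefore also given for most dye responses whose count or call it moved. In such bulk cultures, fewer cells with a transcript and less RNA per cell cannot be told apart.

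**Figure D1:**
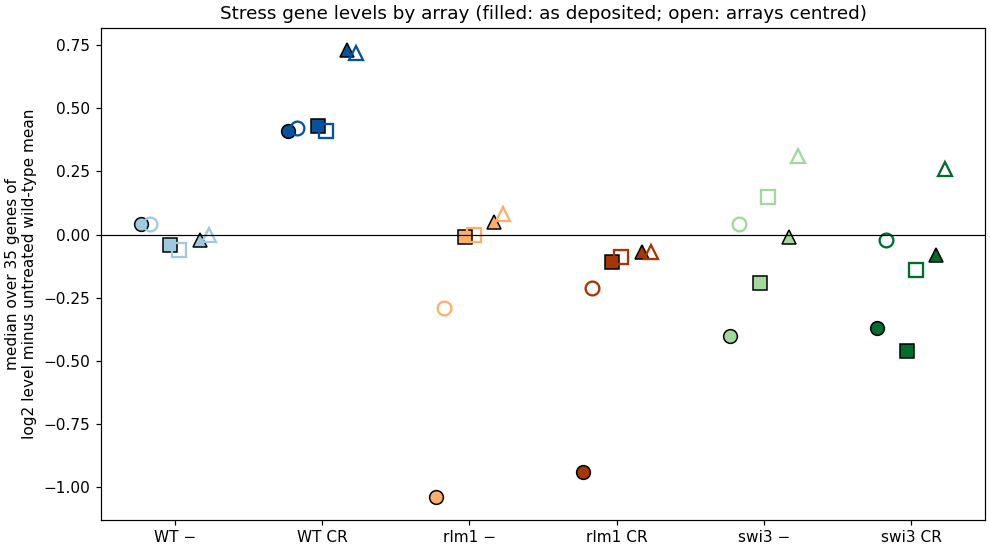
Each point is 1 array, placed by the median over the 35 stress genes of the log2 level minus the untreated wild-type mean, with WT for the wild type, CR for Congo Red, a minus sign for no dye and the marker shape for the array number. The filled points, as deposited, sit at 0.41, 0.43 and 0.73 in the treated wild type and at 0.05 or lower in all mutant groups, while the open points, after each array was centred on its median, lie between -0.14 and 0.31 in swi3.

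Most stress genes had higher levels with Congo Red in the wild type. The log2 level was higher with the dye than without it for 31 of the 35 genes by group means, and 49.0% of all features were higher. For 30 of the 35 the treated array was the higher one in all 3 same-numbered pairs, against 31.3% of all features, and for 1 it was the lower one in all 3, against 33.8%. The median log2 difference was 0.57 over the stress genes and -0.01 over all features. Every treated array lay above every untreated array for 26 of the 35 genes, against 19.0% of features. The reverse held for CYC7 alone, with 18.1% of features reversed in this way. A log2 difference of at least 1 was reached by 7 of the 35, namely HSP12, RTC3, TMA10, NQM1, DDR2, UBI4 and SPI1, and by 1.78% of features.

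In the unpaired limma fit, 2 of the 35 rose in the wild type, HSP12 and RTC3, where 1.57% of all features rose. None fell, 15 had an unadjusted p under 0.05, all higher, and 0.477% of all features fell. The pair-blocked fit called 26 higher, where it called 16.8% of all features higher and 16.0% lower, and it called 0 of the 35 lower. Without both rlm1 number 1 arrays, which enter this comparison only through the shared estimate of spread, 16 rose against 10.5% of features. Without both wild-type number 3 arrays 1 rose, HSP12, against 0.583% of features, and the median difference was 0.38. The count of calls thus depended on the fit.

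In the mutants no such shift was measured. In rlm1 the median log2 difference with Congo Red was 0.01 over the stress genes and 0.00 over all features, and in swi3 it was 0.03 over both. No stress gene was called in either mutant by the unpaired limma fit, 0 had an unadjusted p under 0.05 in either, and the share of all features called was 0.0884% in rlm1 and 0.159% in swi3. The pair-blocked fit called 1 stress gene in rlm1, TMA10, and 0 in swi3, against 1.40% of features called higher in rlm1 and 7.23% called either way in swi3. The treated array was higher in all 3 pairs for 5 of the 35 genes in rlm1, against 22.7% of features, and for 5 in swi3, against 23.5%. It was lower in all 3 for 8 genes in rlm1, against 16.8% of features, and for 6 in swi3, against 14.0%. The signed wild-type difference was higher than that of rlm1 for 34 of the 35 genes, all but YGP1. It was higher than that of swi3 for 32, all but SSA4, CYC7 and SOD2. For SSA4, CYC7 and SOD2 the means fell in both the wild type and rlm1, and less so in the wild type. These counts were not taken over all features, whose median difference of responses, mutant minus wild type, was 0.01 for rlm1 and 0.04 for swi3.

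The difference between the responses was tested directly. The median difference of responses, mutant minus wild type, was -0.56 for rlm1 and -0.48 for swi3, against 0.01 and 0.04 over all features. In the unpaired limma fit no stress gene passed for either mutant, with 7 genes at an unadjusted p under 0.05 for rlm1 and 5 for swi3, and 0.318% and 0.106% of all features called. The pair-blocked fit called a lower signed response for 14 of the 35 genes in rlm1, against 5.80% of features called lower, and for 10 in swi3, against 2.99%. These 2 comparisons share the wild-type arrays and are not independent of each other. Without both rlm1 number 1 arrays the unpaired fit called 7 for rlm1 and 3 for swi3, against 2.17% and 1.56% of features.

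**Figure D2:**
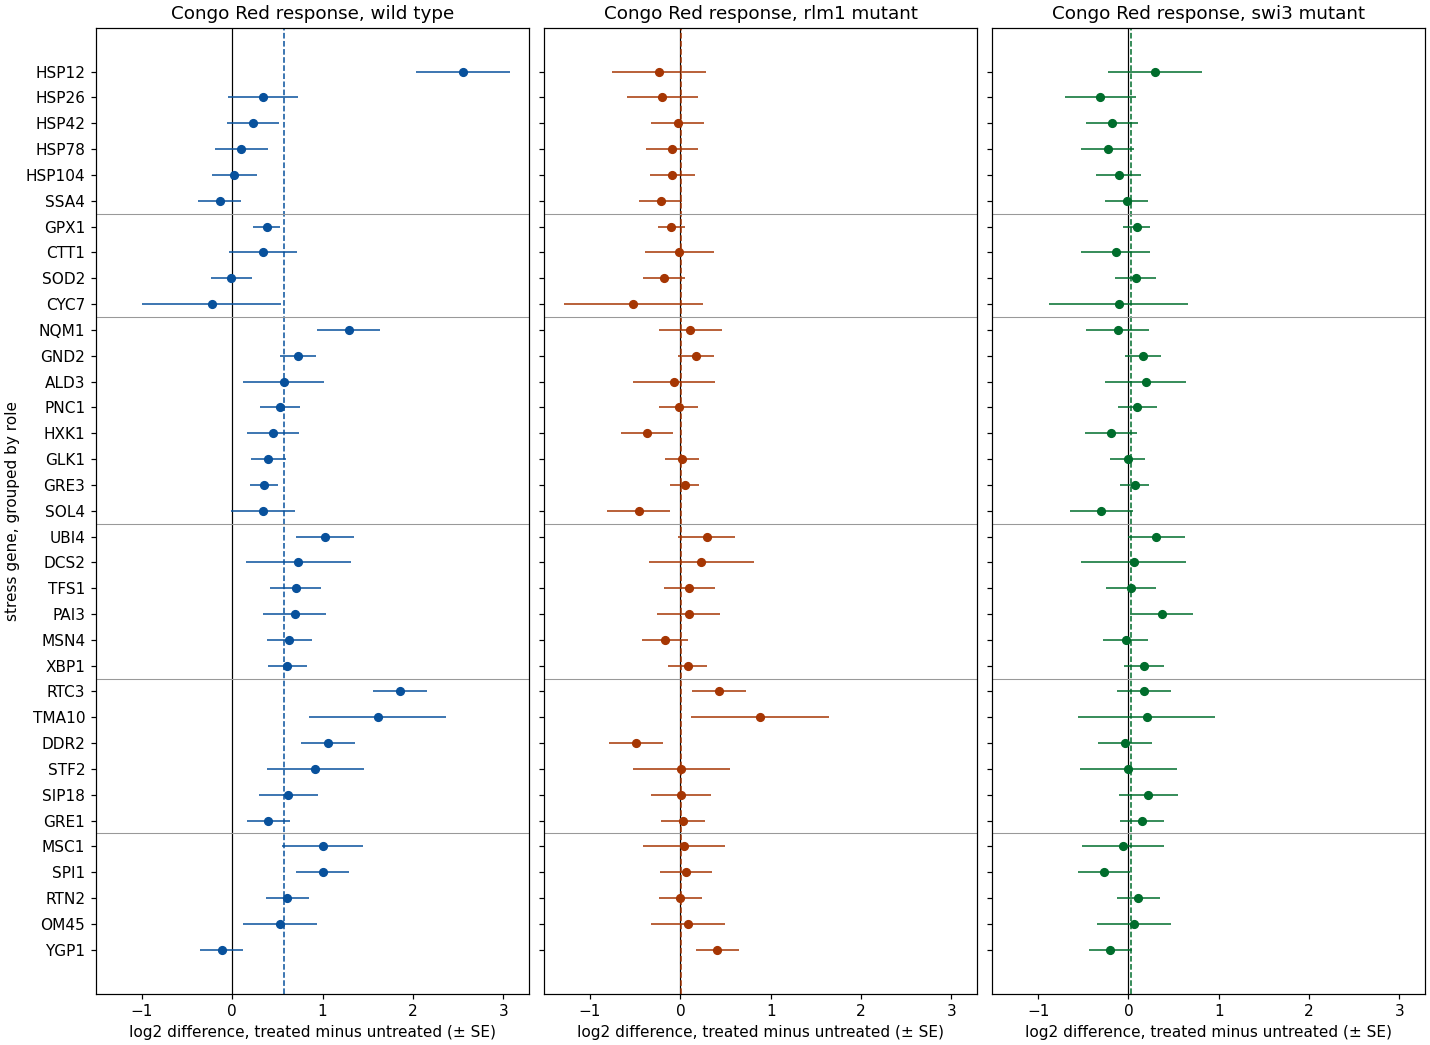
Points are log2 differences, treated minus untreated, with the SE of the unpaired fit (n = 3 arrays per group), for the 35 stress genes grouped by role and for each strain; the dashed line is the median over the 35 genes. The wild-type points lie mostly right of 0, around a median of 0.57, and the mutant points lie around medians of 0.01 and 0.03.

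The strains also differed without the dye. In untreated swi3 against the untreated wild type, 6 of the 35 stress genes were higher (HSP12, HXK1, GLK1, SOL4, SPI1 and MSN4) and 9 were lower (SSA4, DDR2, GRE3, RTN2, YGP1, GPX1, RTC3, XBP1 and GRE1). Over all features 3.80% were called higher and 22.4% lower, and the median log2 difference was -0.41 over all features and -0.21 over the stress genes. After each array was centred on its median, 11 stress genes were higher and 8 lower, against 14.7% and 15.3% of features, and the median over the stress genes was 0.16. Without both wild-type number 3 arrays 5 were higher and 6 lower, against 2.12% and 10.7% of features, and the calls of HXK1, GRE3, RTC3 and GRE1 were lost. Without both rlm1 number 1 arrays 9 were higher and 16 lower, against 8.04% and 64.2% of features. Leaving out any of 12 arrays ended the HXK1 call, any of 6 that of GRE3 and any of 5 that of RTC3, and the DDR2 call ended without untreated wild-type number 3 or untreated swi3 number 1. In untreated rlm1, limma called 0 stress genes, with 4 at an unadjusted p under 0.05 and all 4 lower, and 0.0707% of all features passed. The median over the stress genes was -0.35 and that over all features -0.27, and without both rlm1 number 1 arrays the stress gene median was 0.03.

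With Congo Red in all cultures, 14 stress genes were lower in rlm1 than in the wild type and 0 were higher, against 3.38% and 0.265% of all features. The median log2 difference was -0.99 over the stress genes and -0.26 over all features. Without both wild-type number 3 arrays 4 genes stayed lower (HSP12, DDR2, GND2 and RTC3), against 1.96% of features, and without both rlm1 number 1 arrays 18 were lower, against 11.3%. The other 10 calls were each lost on leaving out at least 1 array: treated wild-type number 3 for SPI1, any of 4 for GRE3 and MSN4, of 9 for NQM1 and PNC1, of 10 for HXK1, of 13 for HSP26 and SOL4, and of 14 for TFS1 and GRE1. In swi3 with the dye, 1 gene was higher than in the wild type, SOL4, and 14 were lower (SSA4, DDR2, ALD3, GRE3, RTN2, YGP1, GND2, GPX1, RTC3, PAI3, XBP1, SIP18, NQM1 and GRE1), against 3.23% and 18.9% of features. The median was -0.68 over the stress genes and -0.37 over all features. Without both wild-type number 3 arrays 1 was higher and 10 were lower, against 1.93% and 10.9%, and the calls of ALD3, PAI3, SIP18 and NQM1 were lost. Leaving out 1 array ended some calls: any of the 6 treated arrays of both strains for ALD3, treated wild-type number 3 or treated swi3 number 1 or 2 for PAI3 and NQM1, treated wild-type number 3 for SIP18, and treated wild-type number 2 for GRE1. Without both rlm1 number 1 arrays 5 were higher and 24 lower, against 8.09% and 59.0% of features. Centring the arrays gave 6 higher and 14 lower in swi3, against 16.0% each way, and 0 higher and 21 lower in rlm1, against 7.16% and 9.31%. Signs of RNA quality differed between these groups: with the dye the probe set for the 3' part of the 25S ribosomal RNA had log2 levels of 10.47 to 12.27 in rlm1, 8.09 to 9.34 in the wild type and 6.37 to 7.56 in swi3, with no overlap. Without the dye it had 12.13 to 13.08 in rlm1, 8.82 to 10.91 in the wild type and 9.32 to 12.40 in swi3. The 3' minus 5' difference of the control transcript was 0.97 on untreated rlm1 number 1, 0.96 on untreated swi3 number 3 and 0.55 to 0.72 on the others. The part of these in the strain differences was not tested. No pair-blocked fit exists for differences between strains, since the pairs lie within a strain. The differences between strains share the wild-type arrays with the wild-type response.

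**Figure D3:**
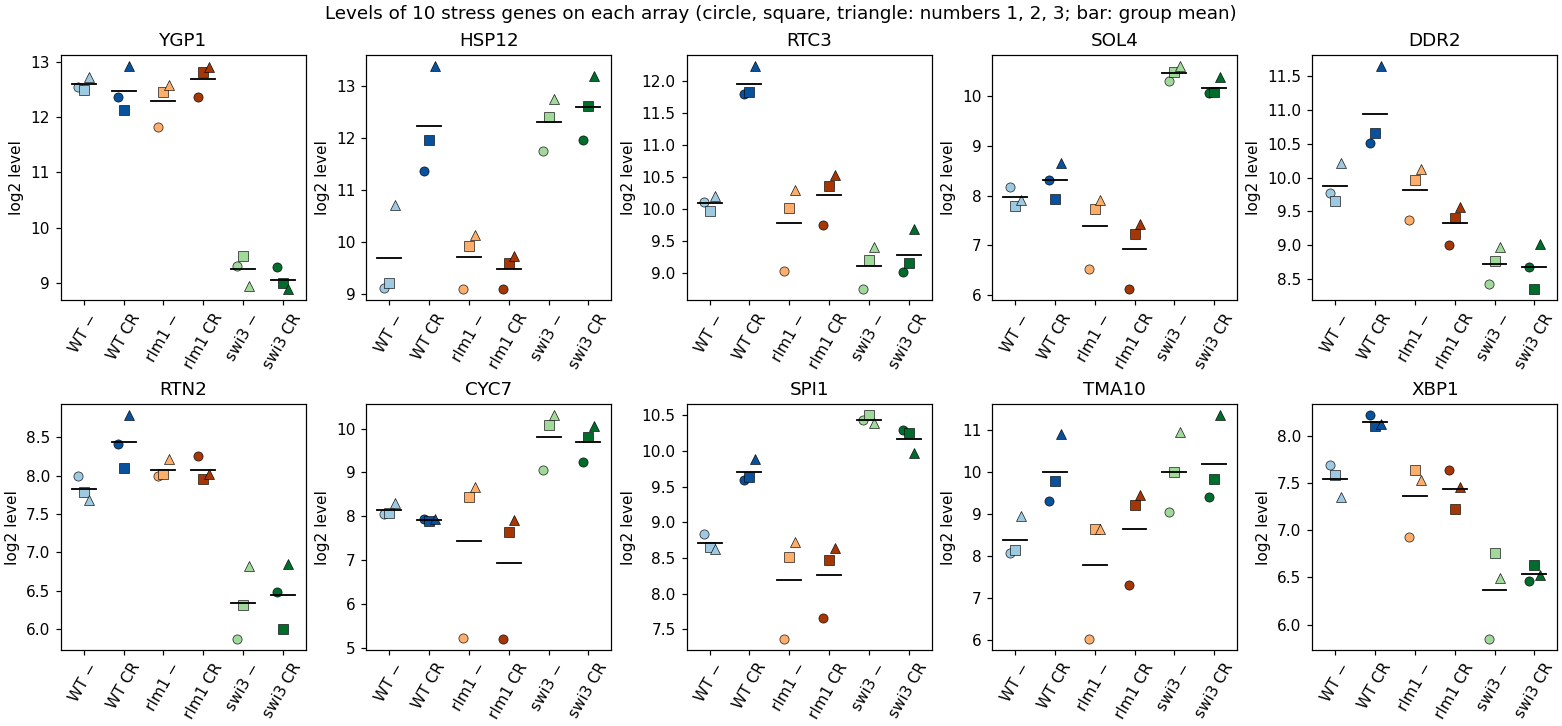
Each panel gives the log2 level of 1 stress gene on all 18 arrays, with WT for the wild type, CR for Congo Red, a minus sign for no dye, the marker shape for the array number and a bar for the group mean; the vertical scale differs between panels. HSP12, RTC3, DDR2, SPI1 and TMA10 were higher on every treated than on every untreated wild-type array, and YGP1, RTN2 and XBP1 were lower on every swi3 array than on every wild-type array.

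The group of 6 heat shock proteins and chaperones was split. HSP12, which encodes a small hydrophilic protein that binds membranes, carried the largest response of all 35 genes, and the ATP-driven chaperones had differences near 0. In the untreated wild type its log2 levels were 9.11, 9.22 and 10.72, and with Congo Red 11.36, 11.96 and 13.39. In rlm1 they were 9.09, 9.93 and 10.14 without the dye and 9.10, 9.60 and 9.74 with it. In swi3 they were 11.75, 12.41 and 12.76 without the dye and 11.96, 12.62 and 13.20 with it. The treated wild-type arrays and all swi3 arrays were thus high, the untreated wild-type arrays and all rlm1 arrays low, and the high arrays did not overlap with the low ones. The log2 difference with Congo Red in the wild type was 2.55 ± 0.52 (SE), or 5.87-fold, with an adjusted p of 0.0136 in limma. The call was lost, with the same direction, when any 1 of 3 wild-type arrays was left out (untreated number 1, untreated number 2 or treated number 3). The response was smaller by 2.79 in rlm1, with an adjusted p of 0.23 unpaired and 1.9e-05 pair-blocked, and by 2.27 in swi3, with 1 and 2.0e-04. Untreated swi3 exceeded the untreated wild type by 2.62 ± 0.52, or 6.16-fold (adjusted p 0.00255), and the strains differed by 0.36 ± 0.52 with the dye (adjusted p 0.614). Treated rlm1 differed from the treated wild type by -2.76 ± 0.52 (adjusted p 0.00663).

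The other heat shock genes responded less in the wild type. HSP26, a small chaperone that holds unfolded proteins, had a log2 difference of 0.34 ± 0.39 and HSP42, its relative, 0.23 ± 0.29. HSP78, the mitochondrial disaggregase, had 0.10 ± 0.29, and HSP104, the cytosolic one that pulls proteins out of aggregates, 0.02 ± 0.25. SSA4, the stress-inducible Hsp70, had -0.14 ± 0.24. None of these passed either fit, and the adjusted p was 1 for each in the unpaired one. HSP26 fell in treated rlm1 against the treated wild type, from a mean of 9.76 ± 0.32 (SD, n = 3) to 8.24 ± 0.83, with a log2 difference of -1.51 ± 0.39 (SE) and an adjusted p of 0.0454. Without both wild-type number 3 arrays that adjusted p was 0.212. SSA4 was lower in swi3 than in the wild type in both conditions: by -1.11 ± 0.24 without the dye (adjusted p 0.00487) and by -0.99 ± 0.24 with it (adjusted p 0.00982). Without the dye its means were 9.87 ± 0.11 (SD, n = 3) and 8.76 ± 0.14, and no swi3 array reached any wild-type array.

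The 6 hydrophilins and small stress proteins had the largest median response of the 6 role groups, 0.99 in the wild type. RTC3, which encodes a small protein with a fold related to the ribosome maturation factor SBDS, had log2 levels of 10.12, 9.97 and 10.21 in the untreated wild type and of 11.80, 11.84 and 12.24 with Congo Red. In rlm1 it had 9.03, 10.02 and 10.31 without the dye and 9.75, 10.37 and 10.53 with it. In swi3 it had 8.75, 9.20 and 9.41 without the dye and 9.02, 9.16 and 9.69 with it. Only the treated wild-type arrays of these 18 were above 11, and every swi3 array lay below every wild-type array. RTC3 rose by 1.86 ± 0.30 (SE), or 3.63-fold, with an adjusted p of 0.00257, which was 0.0664 without both wild-type number 3 arrays. Its response was smaller by 1.43 in rlm1 (adjusted p 0.413 unpaired, 8.4e-04 pair-blocked) and by 1.69 in swi3 (0.347 and 8.3e-04). In rlm1 the treated array was still higher in all 3 pairs, by 0.72, 0.35 and 0.22. With the dye RTC3 was lower than in the wild type by -1.74 ± 0.30 in rlm1 (adjusted p 0.00352) and by -2.67 ± 0.30 in swi3 (adjusted p 2.0e-05). Untreated swi3 differed by -0.98 ± 0.30, with an adjusted p of 0.0291.

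DDR2, named for its induction by DNA damage and induced by many stresses, had log2 levels of 9.77, 9.66 and 10.22 in the untreated wild type and of 10.51, 10.66 and 11.65 with Congo Red. In rlm1 the levels were 9.37, 9.96 and 10.13 without the dye and 9.01, 9.41 and 9.57 with it. In swi3 they were 8.43, 8.77 and 8.98 without it and 8.68, 8.35 and 9.02 with it. The treated wild-type arrays were the 3 highest of the 18, and the swi3 arrays lay below all wild-type arrays. The wild-type difference was 1.06 ± 0.30, or 2.08-fold, with an adjusted p of 0.0956 unpaired and 7.1e-04 pair-blocked. In rlm1 the treated array was lower in all 3 pairs, by -0.36, -0.55 and -0.56, and the response differed from that of the wild type by -1.55 (adjusted p 0.259 unpaired, 0.0024 pair-blocked). In swi3 it differed by -1.10 (1 and 0.0202). DDR2 was lower in swi3 than in the wild type without the dye, by -1.16 ± 0.30 (adjusted p 0.0124), and with it, by -2.26 ± 0.30 (adjusted p 8.1e-05).

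TMA10 and STF2 are related hydrophilins, the latter known for binding the inhibitor of the mitochondrial ATP synthase. TMA10 had log2 levels of 8.07, 8.13 and 8.94 in the untreated wild type and of 9.30, 9.77 and 10.89 with Congo Red. In rlm1 it had 6.03, 8.65 and 8.64 without the dye and 7.30, 9.20 and 9.45 with it. In swi3 it had 9.05, 9.99 and 10.95 without it and 9.40, 9.84 and 11.34 with it. The number 1 arrays of rlm1 were the lowest, and the swi3 arrays, with or without the dye, overlapped with the treated wild type. The wild-type difference of 1.61 ± 0.76, or 3.05-fold, had an adjusted p of 0.491 unpaired and 1.8e-04 pair-blocked. TMA10 was the 1 stress gene called in rlm1 by the pair-blocked fit, with 0.88 and an adjusted p of 0.0365 there (1 unpaired), and it differed by 1.27, 0.55 and 0.81 in the 3 pairs. The response was smaller in swi3 by 1.41 (adjusted p 1 unpaired, 0.0147 pair-blocked). STF2 had a wild-type difference of 0.92 ± 0.54 (adjusted p 0.676 unpaired, 1.8e-04 pair-blocked) and a difference of 0.01 ± 0.54 in rlm1. In swi3 its mean was 11.14 both without and with the dye.

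SIP18 and GRE1 are hydrophilins known to be induced by osmotic stress, and both had low levels throughout. SIP18 averaged 5.75 ± 0.25 (SD, n = 3) in the untreated and 6.37 ± 0.67 in the treated wild type. It was the 1 stress gene whose 6 group means were all under 7, a level that 36 of the 47 probe sets for reporter sequences absent from yeast stayed under on every array. Differences to or from such levels may understate the change. GRE1 averaged 7.21 ± 0.17 in the untreated and 7.61 ± 0.10 in the treated wild type. Its difference of 0.40 ± 0.24 (SE) passed the pair-blocked fit (adjusted p 0.00703) and not the unpaired one (0.718), and that of SIP18, 0.62 ± 0.33, did likewise (0.00518 and 0.574). GRE1 was lower than the wild type in treated rlm1 by -0.93 ± 0.24 (adjusted p 0.044), in untreated swi3 by -0.69 ± 0.24 (adjusted p 0.0471) and in treated swi3 by -0.94 ± 0.24 (adjusted p 0.0126). The first and the second of these calls were each lost on leaving out any of 14 arrays. SIP18 was lower in treated swi3, by -1.30 ± 0.33 (adjusted p 0.011).

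The 8 enzymes of sugar, pentose phosphate, aldehyde and nicotinamide metabolism all had higher means with Congo Red in the wild type, by 0.34 to 1.29. None passed the unpaired fit and 7 passed the pair-blocked one, which called 16.8% of all features higher. The strain differences within this group ran both ways. SOL4, a 6-phosphogluconolactonase, had log2 levels of 8.18, 7.79 and 7.92 in the untreated wild type and of 8.32, 7.94 and 8.65 with the dye. In rlm1 it had 6.52, 7.72 and 7.90 without the dye and 6.11, 7.23 and 7.43 with it. In swi3 it had 10.31, 10.50 and 10.61 without it and 10.06, 10.09 and 10.38 with it. All 6 swi3 arrays lay above all others, and the treated rlm1 arrays lay below all wild-type arrays. SOL4 was higher in swi3 than in the wild type by 2.51 ± 0.35, or 5.70-fold, without the dye (adjusted p 1.5e-04) and by 1.87 ± 0.35, or 3.66-fold, with it (adjusted p 0.00153). It was lower in treated rlm1 by -1.38 ± 0.35 (adjusted p 0.0395, and 0.195 without both wild-type number 3 arrays).

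The hexose kinases HXK1 and GLK1, which phosphorylate glucose when it is scarce, shared this pattern in swi3 without the dye. GLK1 averaged 13.01 ± 0.09 (SD, n = 3) in the wild type and 13.96 ± 0.02 in swi3, a difference of 0.95 ± 0.19 (SE) with an adjusted p of 0.00278. HXK1 averaged 12.40 ± 0.19 (SD, n = 3) and 13.24 ± 0.14, a difference of 0.84 ± 0.29 (SE) with an adjusted p of 0.0442. The HXK1 call was lost without both wild-type number 3 arrays (adjusted p 0.153). With the dye neither passed: GLK1 differed by 0.54 ± 0.19 (adjusted p 0.0538) and HXK1 by 0.20 ± 0.29 (adjusted p 0.616). HXK1 was lower in treated rlm1 than in the treated wild type, by -1.16 ± 0.29 (adjusted p 0.0352), and its treated array was lower in all 3 rlm1 pairs.

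NQM1, a relative of the pentose phosphate enzyme transaldolase, had the largest wild-type difference of the enzymes, 1.29 ± 0.35, or 2.45-fold, with an adjusted p of 0.0834 unpaired and 0.00141 pair-blocked. Its untreated wild-type mean was 8.27 ± 0.36 (SD, n = 3) and its treated mean 9.56 ± 0.83, and the means in the mutants were 8.04 to 8.37. It was lower with the dye in rlm1 than in the wild type, by -1.41 ± 0.35 (SE, adjusted p 0.0365), and in swi3, by -1.32 ± 0.35 (adjusted p 0.0154). Its response was smaller by 1.18 in rlm1 and by 1.41 in swi3 (adjusted p 1 in both unpaired, 0.032 and 0.0276 pair-blocked). GND2, a 6-phosphogluconate dehydrogenase, averaged 7.82 ± 0.18 (SD, n = 3) in the untreated and 8.55 ± 0.12 in the treated wild type and between 7.31 and 7.50 in the mutants. It had a wild-type difference of 0.73 ± 0.20 (SE, adjusted p 0.0759 unpaired and 0.0244 pair-blocked). With the dye it was lower than in the wild type by -1.07 ± 0.20 in rlm1 (adjusted p 0.00554) and by -1.05 ± 0.20 in swi3 (adjusted p 0.00153). PNC1, the nicotinamidase, rose from 12.52 ± 0.09 to 13.05 ± 0.06 (SD, n = 3) by the pair-blocked fit (adjusted p 7.6e-04, and 0.367 unpaired). In treated rlm1 it averaged 12.15 ± 0.41, lower than the wild type by -0.90 ± 0.22 (SE, adjusted p 0.0345). GRE3, an aldose reductase, and ALD3, an aldehyde dehydrogenase, had wild-type differences of 0.35 ± 0.16 and 0.57 ± 0.45 (SE). GRE3 averaged 11.52 ± 0.05 (SD, n = 3) in the untreated and 11.87 ± 0.09 in the treated wild type and 11.01 to 11.14 in the mutant groups. ALD3 was the 1 enzyme of the 8 that passed neither fit in the wild type (adjusted p 0.0581 pair-blocked). GRE3 was lower than the wild type in untreated swi3 by -0.51 ± 0.16 (adjusted p 0.0346), a size close to the shift of -0.41 over all features, and after centring its difference was -0.14 (adjusted p 0.382). With the dye it was lower in rlm1, by -0.73 ± 0.16 (adjusted p 0.0187), and in swi3, by -0.79 ± 0.16 (adjusted p 0.0031). ALD3 averaged 7.74 ± 0.53 (SD, n = 3) in the treated wild type and 6.35 ± 0.09 in treated swi3, where it was lower by -1.39 ± 0.45 (SE, adjusted p 0.0376).

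All 6 regulators, inhibitors and turnover genes had higher means with Congo Red in the wild type, by 0.61 to 1.03. All passed the pair-blocked fit, which called 16.8% of all features higher, and none passed the unpaired one. MSN4, which encodes 1 of the transcription factors that give this response its name, averaged 9.01 ± 0.25 (SD, n = 3) in the untreated and 9.64 ± 0.11 in the treated wild type. Its difference of 0.63 ± 0.25 (SE) had an adjusted p of 0.32 unpaired and 0.00348 pair-blocked. In untreated swi3 it averaged 10.37 ± 0.25 (SD, n = 3), higher than the untreated wild type by 1.36 ± 0.25 (SE, adjusted p 0.00156), and with the dye the difference was 0.71 ± 0.25 (adjusted p 0.0545). In treated rlm1 it was lower by -1.06 ± 0.25 (adjusted p 0.0281, and 0.122 without both wild-type number 3 arrays). The level of the mRNA says nothing of where the protein is, which is the known point of control.

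XBP1, a repressor made under stress and starvation, had log2 levels of 7.69, 7.59 and 7.35 in the untreated wild type and of 8.22, 8.11 and 8.13 with the dye. The rlm1 arrays had 6.93, 7.64 and 7.53 without the dye and 7.64, 7.23 and 7.46 with it. The swi3 arrays had 5.85, 6.76 and 6.49 without it and 6.46, 6.63 and 6.53 with it. The treated wild-type arrays were above, and the swi3 arrays below, all others. The wild-type difference of 0.61 ± 0.22 had an adjusted p of 0.231 unpaired and 0.0426 pair-blocked. XBP1 was lower in swi3 than in the wild type by -1.18 ± 0.22 without the dye (adjusted p 0.00169) and by -1.61 ± 0.22 with it (adjusted p 1.1e-04). The swi3 means of 6.37 and 6.54 lie under 7.

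UBI4, the polyubiquitin gene, showed the tightest of the larger responses in the wild type, from 11.22 ± 0.10 to 12.25 ± 0.07 (SD, n = 3). The difference of 1.03 ± 0.32 (SE), or 2.04-fold, had an adjusted p of 0.138 unpaired and 2.7e-04 pair-blocked, and the 3 pairs gave 0.98, 0.94 and 1.17. Its response was smaller by 0.74 in rlm1 and by 0.72 in swi3 (adjusted p 1 in both unpaired, 0.0239 and 0.0439 pair-blocked). TFS1, an inhibitor of carboxypeptidase Y, averaged 10.36 ± 0.11 (SD, n = 3) in the untreated and 11.06 ± 0.18 in the treated wild type. Its difference was 0.70 ± 0.28 (adjusted p 0.316 unpaired, 0.00357 pair-blocked). The level of TFS1 was lower in treated rlm1 than in the treated wild type by -1.08 ± 0.28 (adjusted p 0.0427). PAI3, the inhibitor of proteinase A, had a wild-type difference of 0.69 ± 0.35 (0.537 and 0.0126). Its level was lower in treated swi3 than in the treated wild type by -1.14 ± 0.35 (adjusted p 0.0303). PAI3 lies next to SIP18 on the chromosome in assembly R64, and both had group means under 7. DCS2, a relative of the scavenger decapping enzyme, had 0.73 ± 0.58 (0.939 and 0.0137).

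Among the 5 wall, secreted and membrane proteins, YGP1 stood apart. It encodes a secreted glycoprotein made in larger amounts when nutrients run out. Its log2 levels were 12.55, 12.50 and 12.74 in the untreated wild type and 12.36, 12.14 and 12.93 with Congo Red. In rlm1 they were 11.82, 12.46 and 12.59 without the dye and 12.36, 12.82 and 12.92 with it. In swi3 they were 9.31, 9.49 and 8.94 without it and 9.28, 8.99 and 8.88 with it. The 6 swi3 arrays lay below all others by over 2 log2 units, and the wild-type groups overlapped. YGP1 was lower in swi3 by -3.35 ± 0.24, or 10.2-fold, without the dye (adjusted p 1.9e-07) and by -3.43 ± 0.24, or 10.8-fold, with it (adjusted p 1.4e-07). These were the largest strain differences of the 35 genes, and after centring they were -2.98 and -3.08. The wild-type response was -0.12 ± 0.24 (adjusted p 1). In rlm1 the treated array was higher in all 3 pairs, by 0.54, 0.36 and 0.33, with a mean of 0.41 ± 0.24 that passed neither fit (adjusted p 1 unpaired, 0.139 pair-blocked).

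SPI1, a wall protein with a glycolipid anchor, had log2 levels of 8.84, 8.66 and 8.63 in the untreated wild type and of 9.60, 9.64 and 9.89 with the dye. Levels in rlm1 were 7.37, 8.51 and 8.72 without the dye and 7.66, 8.47 and 8.64 with it. Levels in swi3 were 10.43, 10.50 and 10.39 without it and 10.30, 10.25 and 9.97 with it. The swi3 arrays were the highest, with the treated ones below the untreated ones, and the treated wild type came next. The wild-type difference of 1.00 ± 0.29, or 2.00-fold, had an adjusted p of 0.111 unpaired and 1.9e-04 pair-blocked. The response differed by -0.94 in rlm1 (adjusted p 1 unpaired, 0.00619 pair-blocked) and by -1.27 in swi3 (1 and 0.00279). SPI1 was higher in untreated swi3 than in the untreated wild type by 1.73 ± 0.29 (adjusted p 7.9e-04) and lower in treated rlm1 by -1.45 ± 0.29 (adjusted p 0.00978, and 0.0693 without both wild-type number 3 arrays).

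RTN2, a reticulon-like protein of the endoplasmic reticulum membrane, had log2 levels of 7.99, 7.79 and 7.68 in the untreated wild type and of 8.41, 8.10 and 8.78 with the dye. On rlm1 arrays it had 7.99, 8.02 and 8.22 without the dye and 8.25, 7.96 and 8.02 with it. On swi3 arrays it had 5.88, 6.32 and 6.82 without it and 6.49, 6.01 and 6.85 with it. The swi3 arrays lay below all others, and the wild type and rlm1 lay close together. RTN2 was lower in swi3 by -1.48 ± 0.24 without the dye (adjusted p 6.5e-04) and by -1.98 ± 0.24 with it (adjusted p 4.6e-05) (the swi3 means were 6.34 and 6.45). Its wild-type difference was 0.61 ± 0.24 (adjusted p 0.32 unpaired, 0.0358 pair-blocked). MSC1 averaged 9.42 ± 0.12 (SD, n = 3) in the untreated and 10.42 ± 0.50 in the treated wild type, a difference of 1.00 ± 0.45 (SE, 0.448 and 7.9e-04). Its means in the mutants were 8.91 to 9.81. OM45, a protein of the mitochondrial outer membrane, had 0.53 ± 0.41 (0.935 and 0.0035).

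The 4 genes of oxidant defence and the respiratory chain responded least in the wild type together with the heat shock group, with a median of 0.17. CTT1, the cytosolic catalase, had a difference of 0.34 ± 0.38 (adjusted p 1 unpaired, 0.0485 pair-blocked), and GPX1, a glutathione peroxidase, 0.38 ± 0.15 (0.29 and 0.00527). SOD2, the mitochondrial superoxide dismutase, had -0.01 ± 0.23. GPX1 averaged 8.26 ± 0.09 (SD, n = 3) in the untreated and 8.64 ± 0.13 in the treated wild type, and 7.18 ± 0.28 and 7.27 ± 0.13 in swi3. It was lower in swi3 without the dye, by -1.08 ± 0.15 (adjusted p 1.1e-04), and with it, by -1.37 ± 0.15 (adjusted p 1.1e-05). CYC7, the second isoform of cytochrome c, had log2 levels of 8.05, 8.08 and 8.30 in the untreated wild type and of 7.93, 7.89 and 7.93 with the dye. In rlm1 it had 5.23, 8.44 and 8.67 without the dye and 5.21, 7.65 and 7.92 with it. In swi3 it had 9.05, 10.08 and 10.30 without it and 9.23, 9.82 and 10.06 with it. All swi3 arrays lay above all wild-type arrays, and the number 1 arrays of rlm1 lay far below the rest. The difference of 1.67 ± 0.77 between untreated swi3 and wild type had an adjusted p of 0.11, and that of 1.79 ± 0.77 with the dye 0.101. Without both rlm1 number 1 arrays the same differences had adjusted p-values of 1.8e-04 and 1.1e-04.

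**Figure D4:**
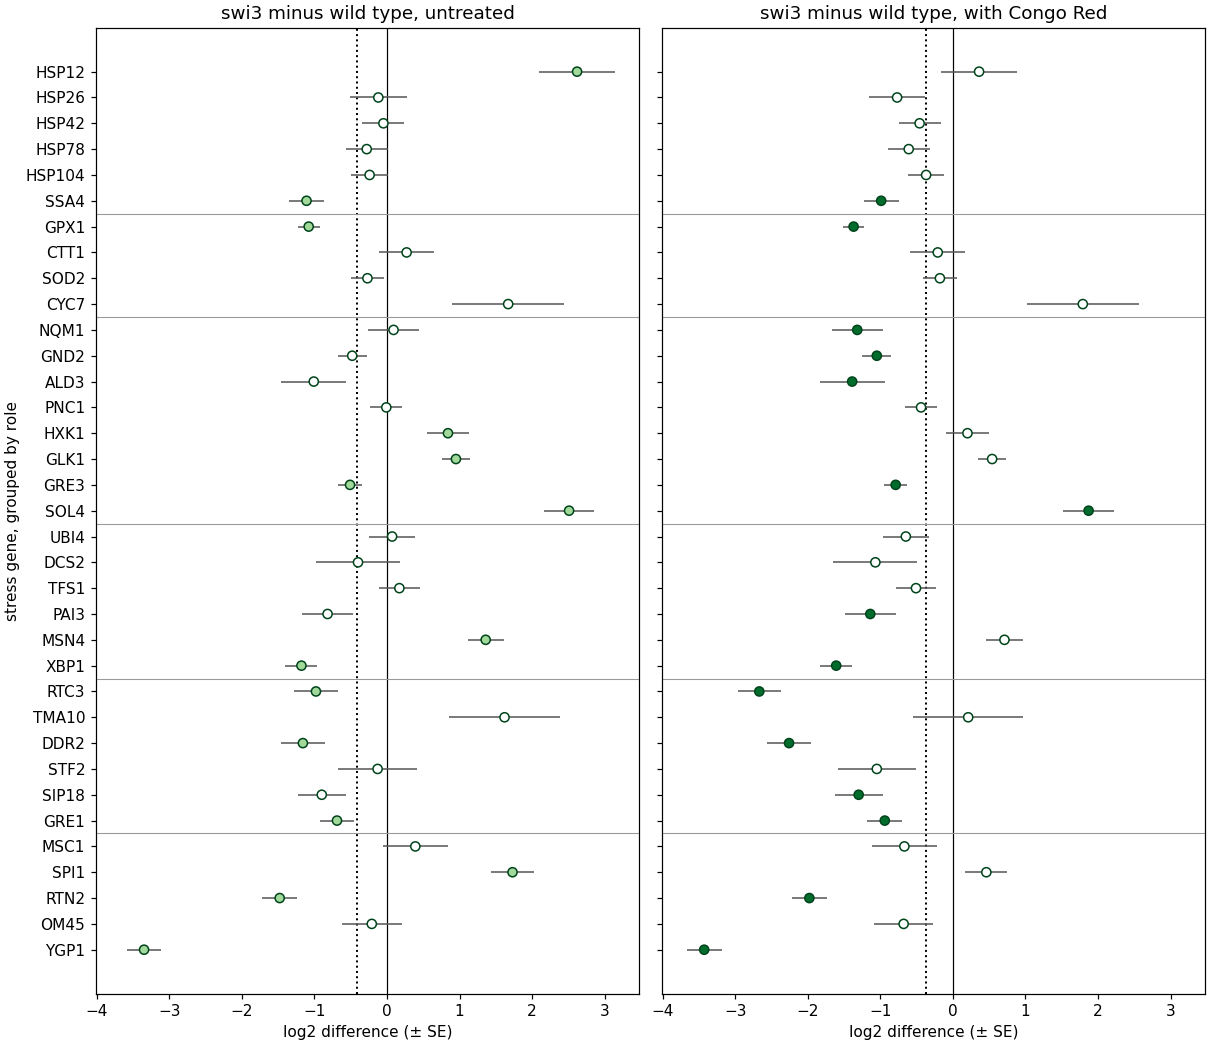
Points are log2 differences, swi3 minus wild type, with the SE of the unpaired fit (n = 3 arrays per group), for the 35 stress genes grouped by role, without and with Congo Red; filled points passed the adjusted p of 0.05 and the dotted line is the median of all features, -0.41 and -0.37. HSP12, SOL4, SPI1 and MSN4 lie to the right and YGP1 far to the left in the untreated panel, and 14 filled points lie left of 0 with the dye against 1 right of it, SOL4.

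By group means, the treated wild type was the highest of the 6 groups for 24 of the 35 genes. Untreated swi3 was the highest for 6, treated swi3 for 2, the untreated wild type for 2 and treated rlm1 for 1. These counts were not taken over all features or on centred arrays. The median over all features was lower on the swi3 arrays and the rlm1 number 1 arrays than on the wild-type arrays. The part of this shift in the counts was not tested. Limma called 12 of the 35 in none of the 9 comparisons when unpaired: HSP42, HSP78, HSP104, CTT1, MSC1, UBI4, DCS2, STF2, CYC7, OM45, TMA10 and SOD2. Of these, the pair-blocked fit called CTT1, MSC1, UBI4, DCS2, STF2, OM45 and TMA10 higher with Congo Red in the wild type, where it called 16.8% of all features higher. The count of 12 was not taken over all features either.

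Many stress genes have a partner related in sequence or only in function, as SOD2 and SOD1 are. Of such pairs 18 were measured, 3 of them with both genes among the 35. No member's probe set carried the suffix that marks shared probes. In 15 pairs the partner was outside the 35 genes, and in 12 of these the member had the higher signed log2 difference in the wild type. MSN4 differed by 0.63 and its partner MSN2 by -0.08, NQM1 by 1.29 and the transaldolase gene TAL1 by 0.01, and GND2 by 0.73 and GND1 by -0.03. HXK1 differed by 0.45 and HXK2 by -0.01, SOL4 by 0.34 and SOL3 by -0.13, and RTN2 by 0.61 and RTN1 by 0.08. The responses were 0.73 and 0.46 for DCS2 and DCS1, 1.00 and 0.69 for SPI1 and SED1, 0.38 and -0.59 for GPX1 and GPX2, and 0.34 and -0.18 for CTT1 and CTA1. SOD2 and SOD1 had -0.01 and -0.12, and CYC7 and CYC1 -0.23 and -0.27. The partner had the higher signed difference for ALD3 and ALD2, with 0.57 and 0.86, for YGP1 and SPS100, with -0.12 and 0.08, and for SSA4 and SSA3, with -0.14 and -0.02. By size without sign, GPX2, SOD1 and CYC1 changed more than their members, and YGP1 and SSA4 more than their partners. The difference within a pair was not tested. SED1 was the 1 partner that passed the unpaired fit (adjusted p 0.0217). Among partners outside the 35 genes, the pair-blocked fit called SED1 (adjusted p 8.0e-04), ALD2 (6.3e-04) and DCS1 (0.00239) higher and GPX2 (0.00149) lower.

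The same pairs were compared between untreated swi3 and wild type, where the median difference over all features was -0.41. SOL4 was 2.51 higher than in the wild type while SOL3 differed by -1.07, MSN4 by 1.36 and MSN2 by 0.11, and SPI1 by 1.73 and SED1 by -0.23. CYC7 differed by 1.67 and CYC1 by 0.22. YGP1 was lower by -3.35 and SPS100 by -0.36, and RTN2 by -1.48 and RTN1 by -0.08. In some pairs the values lay close: ALD3 and ALD2 differed by -1.01 and -1.05, and SSA4 and SSA3 by -1.11 and -0.78. GPX2, the partner of GPX1, differed by -4.18 and GPX1 itself by -1.08. CTT1 and CTA1 differed by 0.27 and -1.77, HXK1 and HXK2 by 0.84 and -0.17, and GND2 and GND1 by -0.48 and -0.64. For NQM1 and TAL1 the values were 0.09 and -0.43, for DCS2 and DCS1 -0.40 and 0.23, and for SOD2 and SOD1 -0.27 and -0.36. Differences within a pair were not tested here either. Within the 35 genes, the related STF2 and TMA10 differed by -0.13 and 1.62, SIP18 and GRE1 by -0.90 and -0.69, and HSP42 and HSP26 by -0.05 and -0.12.

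**Figure D5:**
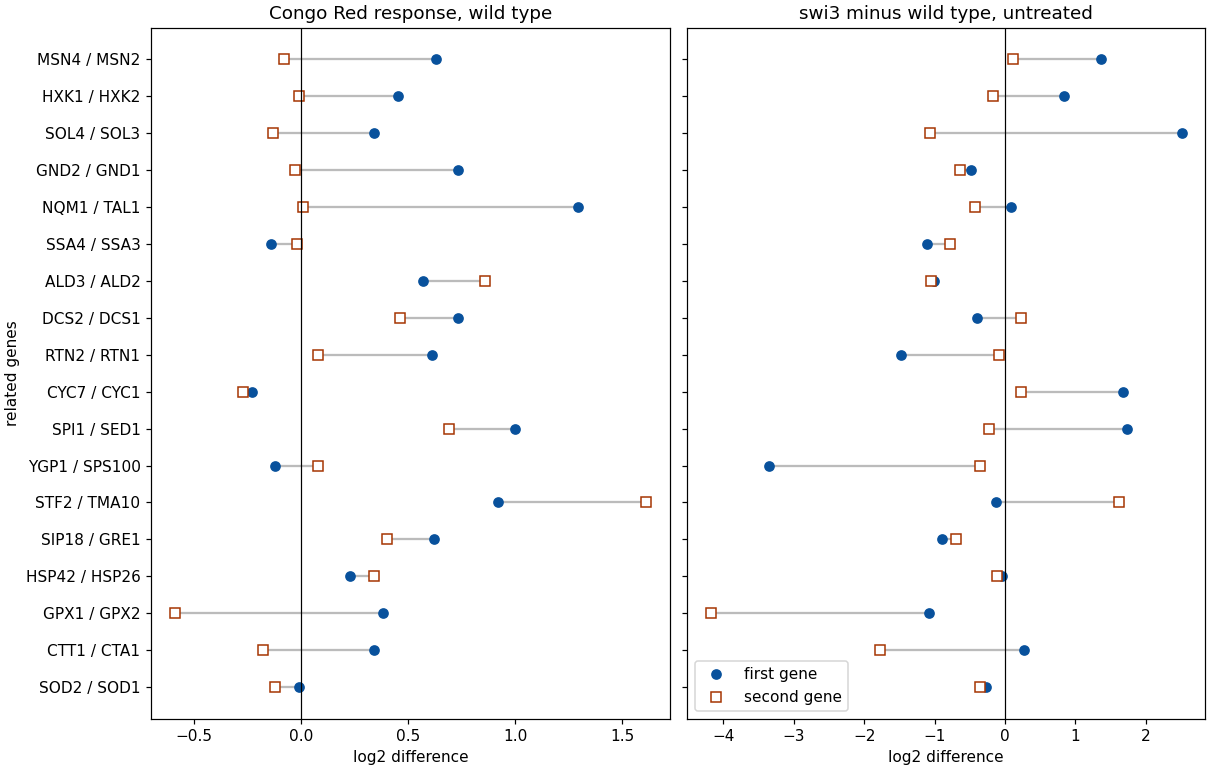
Each row is a pair of genes related in sequence or function, with the circle for the stress gene named first, the square for its partner and the horizontal axis for the log2 difference, for the Congo Red response of the wild type and for swi3 minus wild type without the dye. NQM1 at 1.29 and TAL1 at 0.01 lie far apart on the left, and SOL4 at 2.51 and SOL3 at -1.07 on the right.

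Genes around this regulon were counted for comparison. Of 30 genes that control Msn2 and Msn4 through protein kinase A, TOR and Snf1, 0 passed the unpaired limma fit in the wild-type response (2 at an unadjusted p under 0.05). With the pairs as a block 5 were higher and 3 lower, against 16.8% and 16.0% of all features, and their median difference was 0.01. PDE1, a phosphodiesterase that lowers cyclic AMP, was lower than the wild type with the dye by -1.53 in rlm1 (adjusted p 0.0141) and by -1.57 in swi3 (adjusted p 0.00333). In untreated swi3 4 of the 30 were lower, RAS2 (-0.89), IRA1 (-0.69), SNF1 (-0.58) and SCH9 (-0.49), against 22.4% of all features lower, and after centring 4 were higher and 2 lower. With the dye 5 were lower, against 18.9%, and after centring 5 were higher and 4 lower. The 5 were led by PDE1, RAS2 (-0.89), PSR1 (-0.89) and IRA1 (-0.66). Of 15 other stress regulators 0 passed unpaired in the wild-type response (2 at an unadjusted p under 0.05), and 5 were higher and 1 lower when pair-blocked. In untreated swi3 3 were higher, ADR1 (1.40), CAT8 (1.38) and ROX1 (1.03), and 5 were lower, SKO1 (-0.81) with the largest size, against 3.80% and 22.4% of features, and after centring the counts were 5 and 1. With the dye ROX1 was higher (1.16) and 6 were lower, SKO1 (-0.80), HAC1 (-0.77) and HOG1 (-0.74) the largest, against 3.23% and 18.9% of features. After centring 3 were higher and 3 lower.

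Other stress-inducible groups gave the following counts in the wild type with Congo Red, to be read against 1.57% of all features higher and 0.477% lower unpaired, and 16.8% and 16.0% when paired. Of 18 trehalose and glycogen genes 0 passed limma unpaired (3 at an unadjusted p under 0.05), 10 rose when paired, and their median difference was 0.36. Their medians were 0.01 in rlm1 and -0.12 in swi3. Of 36 other stress-induced genes, YJL107C (1.92), the vacuolar protease gene PRB1 (1.08) and the ubiquitin-conjugating enzyme gene UBC5 (0.73) rose and the aminopeptidase gene APE1 fell (-1.88), while 24 rose and 2 fell by the pair-blocked fit. Of 23 chaperone genes typical of the heat shock factor Hsf1, 0 passed limma unpaired (1 at an unadjusted p under 0.05), 2 rose and 9 fell when paired, and their median difference was -0.11. Of 40 ribosome biogenesis genes, the arm that stress lowers, DBP2 (-0.75), RRP5 (-0.68) and RPA135 (-0.52) fell unpaired, 37 fell pair-blocked, and the median was -0.47. That median was -0.07 in rlm1 and -0.14 in swi3. The 18 cell wall genes linked to Rlm1 had the larger response, with a median of 1.27. Of them 13 rose unpaired, led by PIR3 (5.16), KDX1 (3.86), YPS3 (2.70) and GSC2 (2.53), and 18 rose pair-blocked. In rlm1 GSC2 alone passed (1.91), and in swi3 5 did, with PIR3 (3.38), KDX1 (1.87), PST1 (1.80) and YPS3 (1.32) the largest.

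The strain differences of these lists are to be read against the same shares and shift of all features as for the stress genes, and each is given after centring too. In untreated swi3 3.80% of features were called higher and 22.4% lower, and 14.7% and 15.3% after centring. In treated swi3 the shares were 3.23% and 18.9%, and 16.0% each way after centring. In treated rlm1 they were 0.265% and 3.38%, and 7.16% and 9.31% after centring. Among trehalose and glycogen genes with the dye, GLC3 (-1.30), NTH1 (-1.28) and GDB1 (-0.94) were lower in rlm1 than in the wild type, and GSY2 (-1.17), NTH1 (-1.06) and TPS1 (-0.66) were lower in swi3. After centring these counts of 3 lower became 10 lower in rlm1, and 2 higher and 4 lower in swi3. In untreated swi3 GDB1 was higher (0.75) and GLG1 lower (-1.02), and after centring 5 were higher and 1 lower. Of the 36 other stress-induced genes 7 were higher in untreated swi3, with ALD4 (1.83), GRE2 (1.45) and PHM7 (1.35) the largest, and 3 were lower, GCY1 (-1.44) the largest, while after centring 17 were higher and 3 lower. Of the 23 Hsf1-type chaperones 4 were lower in untreated swi3, SSA3 (-0.78), HSP82 (-0.67), SSA1 (-0.53) and FES1 (-0.53), against 22.4% of all features. After centring 1 was higher and 1 lower. SSE2 was lower with the dye in rlm1 (-1.26) and in swi3 (-1.01). With the dye SSA3 (-0.84), HSP82 (-0.52) and SSA1 (-0.49) were lower in swi3 too, and after centring 6 were higher and 2 lower there, and 1 higher and 1 lower in rlm1. Of the other stress-induced genes YJL107C (-2.34), FMP16 (-1.84) and GCY1 (-0.85) were among 4 lower in treated rlm1, and APE1 was higher (1.62), while after centring 14 were lower and 1 higher. In treated swi3 4 were higher, APE1 (1.86) and GRE2 (1.58) the largest, and 7 lower, GCY1 (-1.81) and PHM8 (-1.67) the largest, while after centring 10 were higher and 9 lower.

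Markers of mating type and sporulation were lower in the swi3 groups. The 7 markers of mating type a, the type of BY4741, had summed levels, on the log2 scale, of 14.75 to 15.38 in wild-type and of 13.62 to 14.40 in swi3 cultures without the dye, and 4 of the 7 were lower. For the 11 sporulation markers the ranges were 10.95 to 11.03 and 9.84 to 10.26, with 6 of 11 lower, and for the 2 markers of mating type alpha, STE3 and SAG1, 9.07 to 9.34 and 7.80 to 8.07, with both lower. Of all features 22.4% were called lower in untreated swi3, where their median difference was -0.41. After centring 3 of the 7, 5 of the 11 and both alpha markers were lower. The summed levels are those of the arrays as deposited. In untreated rlm1 the summed sporulation markers were at 11.05 to 11.11, above every untreated wild-type array. Their part in the swi3 differences of the stress genes was not tested. With Congo Red in the wild type 1 of the 11 sporulation markers rose, SPO11, by 1.65 (adjusted p 0.0149), and the summed level was 11.01 to 11.21. Of the genes deleted in BY4741, HIS3 had a log2 level of 11.21 in the untreated wild type, while LEU2 had 6.54, MET17 5.17 and URA3 4.52. Whether the HIS3 probe set lies outside the deleted stretch was not tested.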

How the data were processed

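RNA from 18 cultures was measured on Affymetrix yeast arrays, 3 arrays in each of 6 groups. The deposited table holds log2 probe set summaries made with GCRMA, per the submitters' processing notes; GCRMA models unspecific binding from each probe's bases, brings the arrays to a common scale and joins a gene's probes into 1 value. Its version and the arrays normalized together are not given in the sources used here, and the log2 scale was read from the values. Background correction makes low levels uncertain, and the number of arrays limits the precision.

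Of 5814 probe sets, 98 controls were left out, 49 second probe sets of a gene were dropped in favour of the one with the highest mean, and 8 that reached a log2 level of 4 on fewer than 3 arrays were removed, which left 5659 features. Gene names came from the platform annotation, updated through NCBI's table of assembly R64, and no coordinates are given, since no build is named. At least 95.2% of the features differed between any 2 arrays.

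Group means were fitted with limma 3.58.1 in R 4.3.3 (lmFit, eBayes) on all 18 arrays, and 9 contrasts were taken, with Benjamini-Hochberg adjustment over all features and calls at an adjusted p under 0.05. The fit was checked on simulated data with independent arrays and, for each feature, the same SD on all arrays. That check does not cover arrays that deviate together or groups with a wider spread. The 35 genes, their role groups and the other gene lists were chosen with earlier results of these data known. Stress genes called anywhere, or with a dye response or untreated strain difference of at least 1, are given with values, the 10 with the largest size on all arrays, and of other lists up to 4 called genes per comparison. Deviations from group means correlated between same-numbered untreated and treated arrays within a strain (r 0.419 to 0.909), which is a check on the data and not a statement of the labels, and in rlm1 different numbers reached 0.871. The pair-blocked fit, a replicate block within strains, rests on this pairing. Leaving out both wild-type number 3 arrays was chosen after seeing the data.

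No promoter or protein sequence is printed, and promoter motifs were not analysed here.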

Additional observations from a re-analysis of the deposited data

Results flagged for a closer look

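For 24 pairs of gene and mutant, the Congo Red response differed from that of the wild type in a direct test, limma's pair-blocked fit, with an adjusted p under 0.05. The unpaired fit called 0 of them. All differences are log2 values, mutant minus wild type, n = 3 same-numbered pairs per strain, and all were negative. The labels do not state this pairing, which was read from the data. Of all features, the same fit called 5.80% lower for rlm1 and 2.99% lower for swi3.

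In rlm1, HSP12 differed by -2.79 ± 0.15 (SE, adjusted p 1.9e-05), DDR2 by -1.55 ± 0.20 (0.0024) and RTC3 by -1.43 ± 0.15 (8.4e-04). NQM1 differed by -1.18 (0.032), MSC1 by -0.95 (0.018), SPI1 by -0.94 (0.00619) and STF2 by -0.91 (0.00458). HXK1 differed by -0.82 (0.0132), SOL4 by -0.80 (0.0122), MSN4 by -0.80 (0.0181) and UBI4 by -0.74 (0.0239). PNC1 differed by -0.55 (0.0121), GPX1 by -0.48 (0.0254) and GLK1 by -0.39 (0.0482).

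In swi3, HSP12 differed by -2.27 ± 0.15 (SE, adjusted p 2.0e-04), RTC3 by -1.69 ± 0.15 (8.3e-04) and SPI1 by -1.27 ± 0.15 (0.00279). TMA10 differed by -1.41 (0.0147), NQM1 by -1.41 (0.0276), DDR2 by -1.10 (0.0202) and MSC1 by -1.06 (0.0202). STF2 differed by -0.92 (0.00867), UBI4 by -0.72 (0.0439) and SOL4 by -0.64 (0.0479).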

How the results depend on the processing

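Shares in parentheses are those of all features called either way, unless a direction is given. In the wild-type response the 2 calls became 26 with the replicate block (16.8% of features higher), 25 with array weights (14.9% higher), 19 with only the strain compared (10.7% higher), 16 without both rlm1 number 1 arrays (10.5% higher), 12 with quantile normalization (8.46% higher), 12 with centring (5.97% higher) and 1 without both wild-type number 3 arrays (0.583% higher). In rlm1 the 0 calls became 1 with the replicate block (1.75%) and 5, all lower, with array weights (1.61% lower). For the rlm1 minus wild-type response, 0 became 14 with the replicate block (5.80% lower), 21 with weights (8.02% lower), 7 without both rlm1 number 1 arrays (2.17% lower), 6 with quantile normalization (2.30% lower) and 4 with centring (1.40% lower). For the swi3 minus wild-type response, 0 became 10 with the block (2.99% lower), 4 with weights (1.77% lower), 3 without the rlm1 arrays (1.56% lower), and 2 with quantile normalization (1.48% lower), with centring (0.866% lower) or with only the strains compared (0.937% lower). Untreated rlm1 against the wild type went from 0 to 7 with weights (26.9%). Untreated swi3 went from 15 (26.2%) to 26 with weights (76.2%), 25 without the rlm1 arrays (72.2%) and 23 with only the strains compared (68.0%), and treated swi3 from 15 (22.1%) to 29 (66.6%), 29 (67.1%) and 27 (62.4%). Treated rlm1 went from 14 (3.64%) to 27 with weights (41.7%) and to 4 with only the strains compared (1.66%) or without both wild-type number 3 arrays (2.05%). The split in untreated swi3, 6 higher and 9 lower, was 11 and 8 with centring and 11 and 4 with quantile normalization (14.0% and 14.3%). GRE1 in untreated swi3 turned to 0.21 (adjusted p 0.363) with quantile normalization. Leaving out 1 array at a time gave 1 to 6 calls in the wild-type response, 0 to 0 in rlm1 and in swi3, 0 to 2 and 0 to 1 for the differences of response, 0 to 0, 10 to 19, 4 to 21 and 11 to 23 for untreated rlm1, untreated swi3, treated rlm1 and treated swi3 against the wild type. The lowest counts came without a wild-type number 3 array for the swi3 and rlm1 differences, and the highest without rlm1 untreated number 1. Weights ranged from 0.027 on an rlm1 number 1 array to 6.522. No filter on low values, the mean of a gene's probe sets and a trended and robust prior kept every count within 1.5 times. Apart from construction (other arrays or samples entering the spread), the cause was not tested. The replicate block could not be fitted for differences between strains. A group mean lay under 7 for 8 of the 35 genes.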
